A study of Mus musculus with 14 samples.

Results

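Lac-CoA embryos were late 2-cell embryos that were deprived of lactate but received lactyl-coenzyme A. Per the study's text, deprivation began at the late zygote stage. The Lac-CoA embryos were compared with lactate-fed late 2-cell embryos to find which transcripts stayed below, reached or exceeded the fed level. The comparison took 4 of the 14 RNA-seq libraries of the series by their labels, 2 of Lac-CoA embryos (L2C-G+N-L+A) and 2 of lactate-fed embryos (L2C-G+N), and no measured value entered that choice. All were mouse embryos of the ICR strain, each library was stated to hold 5 embryos, and both groups were cultured with Gne140, an inhibitor of the lactate dehydrogenases LDHA and LDHB, and with NMN, a precursor of NAD+. The lactate-fed group, called G&N, had sodium lactate in the medium. The Lac-CoA group had none and was injected at the zygote stage with Lac-CoA, the thioester from which lactyl groups are transferred to lysines. That agent is named in the study's text, whereas the treatment label of these libraries gives CoA. Nothing in the sources states that the G&N embryos were injected, so injection and Lac-CoA cannot be told apart. The G&N-L group had the inhibitor and NMN but neither lactate nor Lac-CoA, and its 2 libraries are given beside the others. It was compared with the same G&N libraries, so its fold changes share their controls with those of Lac-CoA and carry no test here. The labels state 3 replicates per group and the count table holds 2.

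In the mouse, transcription of the embryonic genome starts weakly in the zygote and broadly at the late 2-cell stage, a step called major zygotic genome activation (ZGA). RNA stored in the oocyte is degraded over the same period. Late 2-cell embryos transiently express a group of genes and retroelement-linked transcripts, among them the Zscan4, Eif1ad-like and Tcstv families, that are switched off again at later stages. Lysine lactylation of histones, a mark made from lactyl-CoA, has been linked to gene activity.

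The 4 libraries held 33656717 to 44448857 counts, and the G&N-L libraries 34935873 and 35663798. Replicates correlated at r = 0.819 for Lac-CoA and 0.848 for G&N over genes on the log2 scale, and the correlations between the 2 groups spanned 0.806 to 0.82. Lac-CoA libraries thus differed from each other about as much as from G&N libraries. Levels are CPM (counts scaled to 1e+06 per library) on TMM-normalised library sizes over the 6 libraries named above. Markers of cumulus and granulosa cells, which surround the oocyte, summed to 6.8 and 20.5 CPM of the library total in Lac-CoA and to 8.35 and 32.5 in G&N. Of these 17 markers 9 and 11 had no count in the Lac-CoA libraries and 7 and 9 none in G&N. By the criterion given below, 2 of the 7 tested were lower (28.6%, against 4.1% of all genes) and 0 higher (against 4.41%). The 2 were Fshr, with 12 and 328 counts in G&N, and Ptgs2, with 37 and 32, and both had 0 counts in each Lac-CoA library. They were testable only through G&N and could be called only lower, so this share does not measure a difference in these cells. Foxl2 and Cyp11a1 were among those not tested. Sperm genes summed to 118 and 111.9 against 148.4 and 105.6, with 10 of 17 tested, 0 lower and 1 higher. These embryos were lysed whole, so fewer cells and less RNA per cell cannot be told apart, and all values are shares of the RNA in a library.

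Of 19613 genes tested, 0 passed an adjusted p of 0.05 in edgeR's quasi-likelihood test, where the smallest adjusted p was 0.394. At an unadjusted p under 0.05 the test counted 1670 genes (8.51%), and DESeq2 on the same genes called 203 genes lower (1.04%) and 268 higher (1.37%) at its adjusted p. The differences below are therefore described by a nominal criterion, an unadjusted p under 0.05 with an absolute log2 fold change over 0.5. By that criterion 805 genes (4.1% of those tested) were lower and 864 (4.41%) higher in Lac-CoA embryos. In addition, 1898 genes (9.68%) had a 95% interval of the fold change that lay wholly within 2-fold of G&N, and these are called genes that reached the G&N level. That class uses the interval alone, so it needs a small standard error and can include genes that did not differ from G&N without lactate. The share of a list in it thus also depends on how precisely its genes were measured. Leaving out 1 library at a time gave 357 to 1055 lower genes, with the fewest without G&N replicate 2 and 454 without G&N replicate 1, and 549 to 975 genes within 2-fold, and all 14 libraries in one fit gave 425 higher genes. The remaining genes were neither called nor placed within 2-fold with 2 libraries per group. Counts for lists stand against 4.1% lower, 4.41% higher and 9.68% within 2-fold over all genes. Below, "rose" and "fell" mean that a gene passed this criterion, which carries no correction for the number of genes, and every p without the word adjusted is unadjusted and from edgeR.

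The set of 2-cell markers showed the largest shift of the named lists of genes above the G&N level. Of 61 markers listed, 44 were found and 43 tested, and 15 of them (34.9%) rose in Lac-CoA embryos against 4.41% of all genes, while 1 fell. Their median log2 fold change was 0.47, against 0.01 over all genes tested. The 2 Lac-CoA libraries had list medians of 0.40 and 0.44 relative to the G&N mean, and the 2 G&N-L libraries -0.14 and -0.15. Summed over the list, markers took 1.31% and 1.56% of all counts in Lac-CoA, 0.923% and 0.924% in G&N, 0.784% and 0.817% in G&N-L, and 0.114% to 0.135% in the 4 early 2-cell libraries. The late 2-cell embryos that expressed wild-type histone H3 from injected mRNA held 1.32% and 1.3%.

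**Figure D1:**
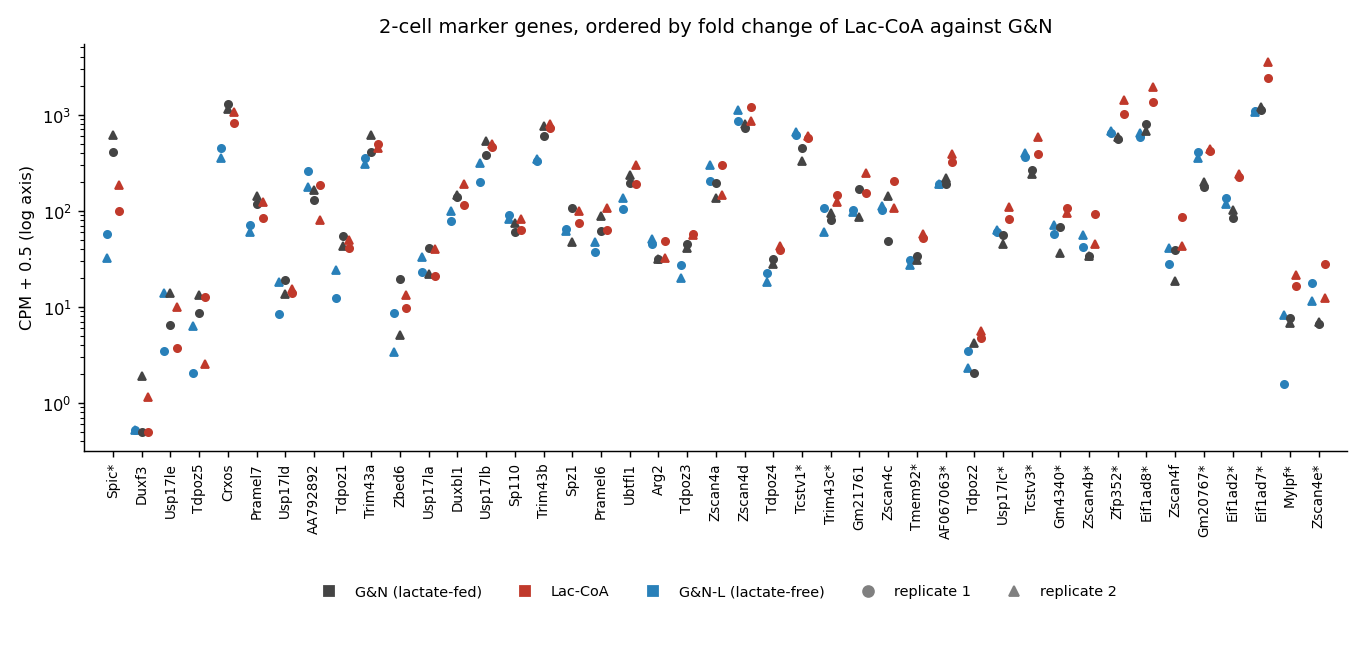
Each of the 43 tested 2-cell markers is plotted in the 6 late libraries as CPM plus 0.5 on a log axis, with circles for replicate 1 and triangles for replicate 2 and an asterisk after each gene that passed the criterion. From Tcstv1 rightward most Lac-CoA points lie above the G&N points, and Spic at the left end lies below them.

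The promoters of 2 markers that rose and of 1 that fell are printed here because the risers carried a motif that the other lacked. Each run is the 250 bases before the annotated gene start, 5′ to 3′ on the strand of the gene, read from the GRCm39 genome, and capitals mark TAATCC, a core bound by homeodomain factors of the Obox and Otx type, or TATAAA, on either strand.
Zfp352 (chr4:90106807-90107056, plus strand): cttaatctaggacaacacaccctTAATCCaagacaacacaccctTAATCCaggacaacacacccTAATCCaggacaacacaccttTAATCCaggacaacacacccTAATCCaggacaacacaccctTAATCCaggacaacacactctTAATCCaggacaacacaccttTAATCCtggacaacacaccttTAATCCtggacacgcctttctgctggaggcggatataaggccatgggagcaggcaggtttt
Eif1ad7 (chr12:88241271-88241520, minus strand): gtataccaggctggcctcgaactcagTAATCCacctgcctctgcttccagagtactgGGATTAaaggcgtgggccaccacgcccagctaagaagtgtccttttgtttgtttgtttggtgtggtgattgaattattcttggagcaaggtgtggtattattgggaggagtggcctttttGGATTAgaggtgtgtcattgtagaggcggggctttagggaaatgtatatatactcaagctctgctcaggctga
Spic (chr10:88520961-88521210, minus strand): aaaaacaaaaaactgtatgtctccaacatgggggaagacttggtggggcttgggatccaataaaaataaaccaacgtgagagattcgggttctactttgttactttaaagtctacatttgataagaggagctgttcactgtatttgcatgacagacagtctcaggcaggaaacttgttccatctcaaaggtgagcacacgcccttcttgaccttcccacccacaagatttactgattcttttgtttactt
The Zfp352 window held 9 copies of TAATCC within a tandem repeat, and the Eif1ad7 window held 3. The Spic window held neither motif. The homeodomain core was found in 9 of the 15 marker promoters whose genes rose and in 4 of the other 28, and in 1758 of 19460 promoters of tested genes (9.03%). TATAAA was found in 11 of 43 marker promoters, mostly of Zscan4 and Usp17l copies, and in 11.5% of all. Copies within a gene family share sequence, so these promoters are not independent, and a match is a description of the letters.

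The Eif1ad genes, a cluster of 2-cell genes on chromosome 12 that resemble the translation initiation factor eIF1A, gave the clearest excess. Eif1ad7 stood at 2390 and 3480 CPM in Lac-CoA, 1120 and 1190 in G&N and 1100 and 1050 in G&N-L. Both Lac-CoA libraries were above all 4 others, and the log2 fold change against G&N was 1.37 ± 0.24 (SE, n = 2 libraries per group, edgeR unadjusted p = 0.00149). Eif1ad8 held 1350 and 1930 CPM against 798 and 682 in G&N. Eif1ad2 held 225 and 242 CPM against 84.0 and 101 in G&N. The log2 fold changes of these 2 were 1.18 ± 0.25 and 1.37 ± 0.23.

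Zfp352, a zinc finger gene of the 2-cell stage, reached 1020 and 1430 CPM in Lac-CoA against 555 and 588 in G&N and 636 and 667 in G&N-L. It rose by a log2 fold change of 1.13 ± 0.23 (edgeR unadjusted p = 0.00337), and its Lac-CoA libraries did not overlap either other group. Among the Tcstv genes and their neighbours on chromosome 13, Tcstv3 stood at 390 and 587 CPM against 267 and 238, and AF067063 at 322 and 389 against 188 and 219. Gm20767 stood at 414 and 442 CPM in Lac-CoA and at 177 and 197 in G&N, but G&N-L embryos held 407 and 355, so its excess over G&N was also present without Lac-CoA. Tcstv1 showed the same layout, with 565 and 597 CPM in Lac-CoA, 450 and 327 in G&N, and 606 and 653 in G&N-L.

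The Zscan4 genes encode zinc finger proteins that mark the late 2-cell stage and rare cultured stem cells. Of 9 Zscan4 genes and pseudogenes tested, 7 lay above both G&N libraries in both Lac-CoA libraries, a layout shown by 19.2% of all genes, and 4 rose. Without Lac-CoA, all 9 also had a fold change above 0 in G&N-L against G&N. These untested log2 values ran from 0.18 for Zscan4c to 1.14 for Zscan4e. The G&N-L libraries overlapped Lac-CoA for all but Zscan4-ps1 and Zscan4f, where they lay below. Zscan4d, the most abundant, stood at 1210 and 858 CPM in Lac-CoA, 729 and 797 in G&N and 859 and 1120 in G&N-L, a log2 fold change of 0.47 ± 0.24 that did not pass (edgeR unadjusted p = 0.0996). Zscan4b stood at 92.5 and 44.9 CPM against 33.2 and 33.3 in G&N, with 41.2 and 55.5 in G&N-L. Zscan4e stood at 27.7 and 11.8 CPM against 6.19 and 6.52 in G&N, with 17.1 and 10.9 in G&N-L. For both genes the G&N-L libraries overlapped Lac-CoA, so an excess over G&N was also present without Lac-CoA. Lac-CoA replicate 1 was the higher library for each of these 3, while replicate 2 was the higher one for Eif1ad7, Eif1ad8, Zfp352 and Tcstv3. Copies of these families share near-identical sequence, and 32 of the 43 markers and 12 of the 15 that rose belong to such families, so how the counting split reads among copies could move single values.

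Other markers stood near the G&N level. Crxos, a homeobox gene induced at the 2-cell stage, held 809 and 1050 CPM in Lac-CoA, 1300 and 1130 in G&N and 446 and 349 in G&N-L, and its interval lay within 2-fold of G&N (log2 fold change -0.35 ± 0.22). Trim43b held 719 and 789 CPM against 599 and 753 in G&N and 328 and 342 in G&N-L. Tdpoz1 held 40.2 and 48.9 CPM against 54.3 and 42.3 in G&N and 11.8 and 23.5 in G&N-L. In total 9 of the 43 markers reached the G&N level in the sense of the interval.

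Spic, which encodes an ETS-family transcription factor, was the marker that stayed below. It stood at 100 and 183 CPM in Lac-CoA, 403 and 608 in G&N and 57.0 and 31.9 in G&N-L. The Lac-CoA libraries lay between the other groups with no overlap, and the log2 fold change against G&N was -1.81 ± 0.38 (edgeR unadjusted p = 0.00362). Duxf3 (Dux), a transcription factor that acts upstream of many 2-cell genes, was near its floor, at 0 and 0.662 CPM in Lac-CoA and 0 and 1.42 in G&N, and no difference was detectable at this depth.

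The count of markers that rose depended on the libraries and the fit. It was 7 without G&N replicate 2, 9 without Lac-CoA replicate 1 and 1 when all 14 libraries shared one fit, in which the list median was 0.38.

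Genes that rise to the late 2-cell stage were defined without the Lac-CoA, G&N or G&N-L libraries of this stage, as those higher in wild-type histone H3 late 2-cell embryos than in early 2-cell G&N embryos (edgeR adjusted p under 0.05, at least 2-fold). The labels of these reference embryos with histone H3 name neither Gne140 nor NMN, so stage cannot be told apart from culture and injection in this definition, and the rising genes took 47.1% and 49.5% of their counts against 23.2% and 25.8% in late 2-cell G&N. The title and the treatment label of the early 2-cell libraries disagree on which of them had NMN, and with all 4 early libraries as the reference the medians given below were 0.07 for rising and -0.18 for falling genes. Of 3953 such genes 3598 were tested, and their median log2 fold change in Lac-CoA against G&N was 0.09. By library the medians relative to the G&N mean were -0.04 and 0.19 in Lac-CoA, -0.11 and 0.11 in G&N, and -0.50 and -0.70 in G&N-L. Lac-CoA and G&N libraries overlapped on this measure, and both lay above the G&N-L libraries. Of these genes 243 rose (6.75%, against 4.41% of all genes), 106 fell (2.95%, against 4.1%) and 530 (14.7%, against 9.68%) reached the G&N level, while 2719 were neither called nor placed within 2-fold. Without Lac-CoA replicate 2 the counts were 148 that rose and 173 that fell, with a median of -0.08, and without G&N replicate 2 42 fell, with a median of 0.26, so the excess of risers over fallers rested on Lac-CoA replicate 2. With all 14 libraries in one fit 103 rose and 117 fell.

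**Figure D2:**
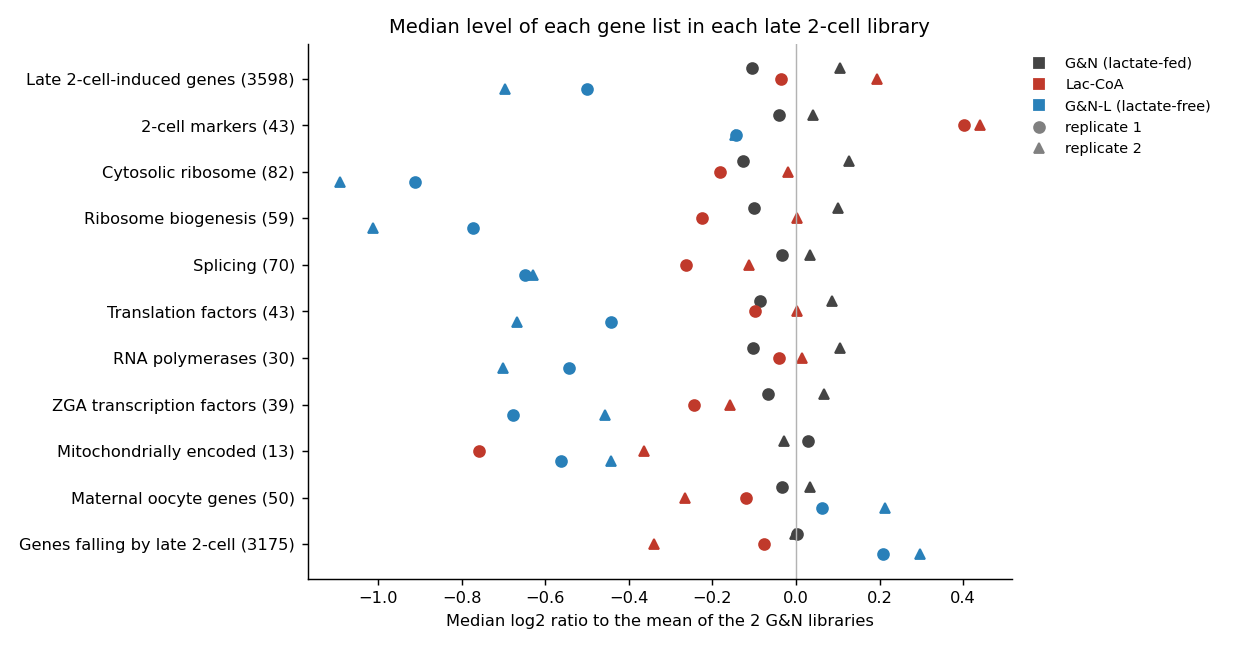
Points give the median log2 ratio to the G&N mean over the tested genes of each list (number in brackets) in each of the 6 late libraries, with circles for replicate 1 and triangles for replicate 2. Lac-CoA points overlap the G&N points for late 2-cell-induced genes, cytosolic ribosome, ribosome biogenesis, translation factors and RNA polymerases. They lie above them for 2-cell markers and below them for splicing, ZGA transcription factors, maternal oocyte genes and falling genes. For mitochondrially encoded genes they lie with the G&N-L points.

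The medians of most growth machinery lists stood near the G&N level. Genes of the cytosolic ribosome had a median log2 fold change of -0.06 in Lac-CoA, with library medians of -0.18 and -0.02, while the G&N-L libraries stood at -0.91 and -1.09. Of 82 ribosomal protein genes 41 lay within 2-fold of G&N (50%, against 9.68% of all genes), 4 fell (4.88%, against 4.1%) and 1 rose (1.22%, against 4.41%). The one that rose was Rplp0, a protein of the ribosomal stalk, at 1060 and 1240 CPM against 570 and 681 in G&N (log2 fold change 0.91 ± 0.21, edgeR unadjusted p = 0.00565). Rpl6 stayed between the groups, at 42.6 and 57.2 CPM in Lac-CoA, 80.6 and 90.7 in G&N and 35.4 and 18.3 in G&N-L. Ribosomal protein genes have many processed copies in the genome, and reads shared with them make single values uncertain.

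Ribosome biogenesis genes had a median of -0.13 in Lac-CoA and library medians of -0.22 and 0.00, against -0.77 and -1.01 in G&N-L, with 2 of 59 lower and 1 higher. Ddx21, a helicase of ribosomal RNA processing, was one of the former, at 21.1 and 35.8 CPM against 50.6 and 63.0 in G&N and 14.1 and 7.10 in G&N-L. RNA polymerase subunits had a median of -0.03, with 1 of 30 lower and 1 higher (3.33% each, against 4.1% and 4.41% of all genes). Of the 30, 13 lay within 2-fold (43.3%, against 9.68%). Translation factors had a median of -0.01 with 2 of 43 lower and 1 higher, and proteasome subunits 0.03 with 1 of 32 lower and 2 higher. In G&N-L the medians of these 3 lists were -0.65, -0.62 and -0.52.

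A pair of translation factors remained intermediate. Eif5, which triggers GTP hydrolysis during start codon selection, stood at 472 and 501 CPM in Lac-CoA, 741 and 959 in G&N and 297 and 254 in G&N-L. Eif3c, a subunit of the eIF3 complex, stood at 41.2 and 37.2 CPM, against 75.2 and 114 in G&N and 36.9 and 24.4 in G&N-L. Both fell against G&N, by log2 fold changes of -0.77 ± 0.22 and -1.24 ± 0.31.

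Splicing factors were lower in more cases than other machinery. Of 70 tested, 7 fell (10%, against 4.1% of all genes) and 0 rose, and the median was -0.14. Over the list 18 of the 70 had both Lac-CoA libraries below both G&N libraries, against 20.3% of all genes tested. All 7 were among these, but they were picked by p on the same libraries, so this adds no support. Lsm7, a subunit of the Lsm ring on U6 RNA, stood at 78.4 and 73.0 CPM in Lac-CoA, 160 and 159 in G&N and 92.3 and 129 in G&N-L (log2 fold change -1.04 ± 0.23, edgeR unadjusted p = 0.00429). Dhx8, a helicase that releases the spliced mRNA, stood at 29.7 and 31.3 CPM, between 57.5 and 65.8 in G&N and 5.23 and 5.24 in G&N-L. Cdc5l, Snrpb2, Snrpe, Crnkl1 and Snrpg were the others.

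The 5 induced genes with the largest rise to the late 2-cell stage among those within 2-fold of G&N were Pdxk, Crxos, Ppp2cb, Ficd and Prmt6. Pdxk, pyridoxal kinase, stood at 66.5 and 74.1 CPM in Lac-CoA, 84.7 and 96.2 in G&N and 32.8 and 25.5 in G&N-L. Ppp2cb, a catalytic subunit of protein phosphatase 2A, stood at 41.0 and 43.2 CPM, 51.8 and 37.1 in G&N and 17.4 and 14.3 in G&N-L. Ficd, an enzyme that AMPylates the chaperone BiP, stood at 73.6 and 86.4 CPM against 86.4 and 66.7 in G&N, and Prmt6, an arginine methyltransferase, at 30.2 and 22.8 against 32.2 and 21.5. In all 5 the Lac-CoA libraries were above both G&N-L libraries.

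**Figure D3:**
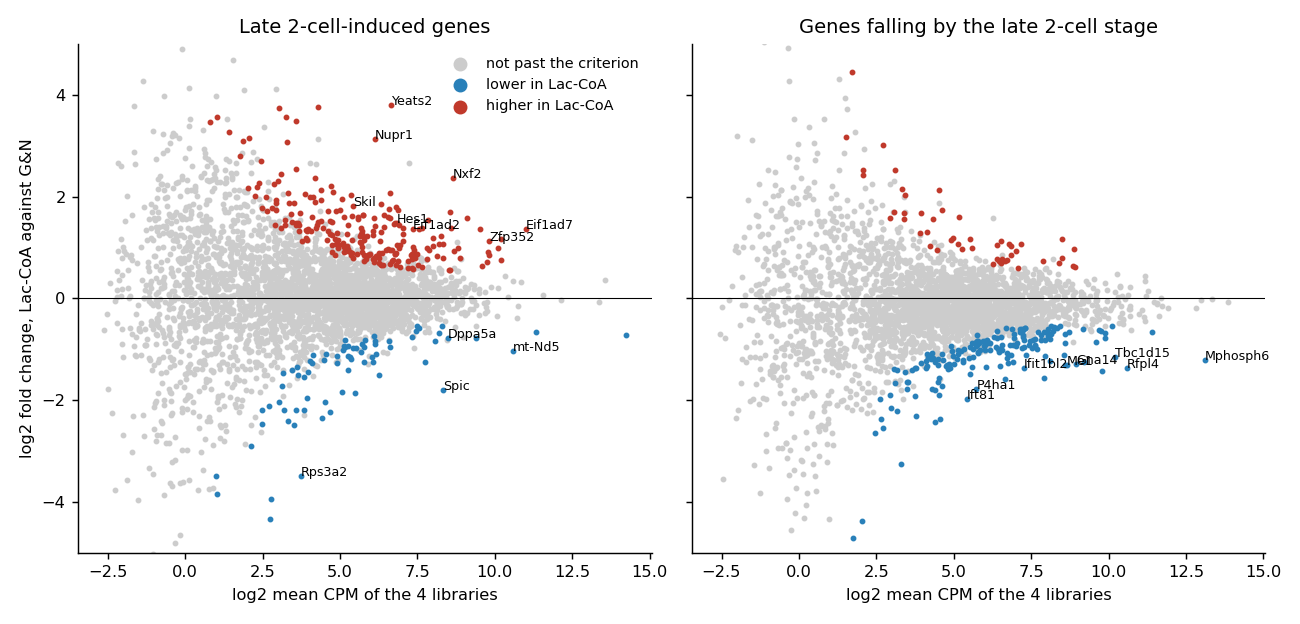
The log2 fold change of Lac-CoA against G&N is plotted against the log2 mean CPM of the 4 libraries for genes that rise (left) and genes that fall (right) by the late 2-cell stage, with genes past the criterion coloured. Red points outnumber blue on the left, 243 to 106, and blue outnumber red on the right, 227 to 73, and 59 and 74 genes lie beyond the plotted range of 5.

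The transcription factors named for ZGA had a median of -0.22 in Lac-CoA and -0.73 in G&N-L, and 5 of 39 fell (12.8%, against 4.1% of all genes) and 2 rose (5.13%, against 4.41%). Klf17, a Krüppel-like factor of the oocyte and early embryo, stood at 102 and 107 CPM in Lac-CoA, 225 and 188 in G&N and 135 and 115 in G&N-L. Obox7 stood at 243 and 196 CPM against 514 and 594 in G&N, with G&N-L libraries far apart at 172 and 457. Kdm5b, a demethylase of H3K4, stood at 149 and 139 CPM, between 205 and 221 in G&N and 72.1 and 57.9 in G&N-L, at the edge of the criterion (edgeR unadjusted p = 0.0499). Obox1 and Dppa2 were the others that fell. By the stage comparison given above, Klf17, Obox7 and Obox1 declined from the early to the late 2-cell stage, whereas Dppa2 was induced. Zfp281, a zinc finger factor of pluripotent cells, rose to 151 and 153 CPM against 69.9 and 79.7 in G&N, with 144 and 98.7 in G&N-L. Klf6 rose as well, from 5.80 and 2.41 to 21.4 and 12.9 CPM. The pluripotency and lineage genes had a median of -0.01, with 0 of 29 lower and 1 higher. That gene was Id2, an inhibitor of bHLH factors, at 258 and 189 CPM against 99.5 and 81.9.

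In the Dppa family, named for developmental pluripotency, 2 of 6 genes tested fell (33.3%, against 4.1% of all genes) and 0 rose. Dppa5a, an RNA-binding KH-domain gene, stood at 231 and 294 CPM in Lac-CoA, 422 and 493 in G&N and 154 and 148 in G&N-L, with no overlap between any groups (log2 fold change against G&N -0.77 ± 0.23, edgeR unadjusted p = 0.0169). Dppa4 had the same order, at 192 and 168 CPM, 234 and 348, and 86.2 and 78.0, but did not pass (edgeR unadjusted p = 0.054). Dppa2, the partner of Dppa4, stood at 116 and 119 CPM against 170 and 234 in G&N and 122 and 145 in G&N-L, so its Lac-CoA libraries were no higher than those without lactate (edgeR unadjusted p = 0.0268). Dppa1 stood at 35.7 and 20.0 CPM against 16.6 and 18.3 and did not pass. Dppa3, a factor that shields the maternal genome from demethylation, stood at 8990 and 10200 CPM against 11900 and 11100, within 2-fold.

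Among ubiquitin-specific proteases 2 of 57 fell and 1 rose (3.51% and 1.75%, against 4.1% and 4.41% of all genes), with a median of -0.14. Usp29 stood at 20.0 and 37.5 CPM in Lac-CoA, 44.1 and 37.8 in G&N and 17.3 and 12.8 in G&N-L, and its difference from G&N did not pass (log2 fold change -0.48 ± 0.41, edgeR unadjusted p = 0.281). Kdm4b, a demethylase of H3K9, was at 3.88 and 2.65 CPM against 1.31 and 1.65 and did not pass.

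Most maternal RNAs had a lower value in Lac-CoA than in G&N embryos, but their summed amount overlapped between the groups. Of the 50 maternal oocyte genes tested, 39 had a fold change below 0 in Lac-CoA, against 9722 of the 19613 genes tested, with a median of -0.19 (0.23 in G&N-L). By the criterion 7 fell (14%, against 4.1% of all genes) and 0 rose (4.41% of all), and 19 (38%, against 9.68% of all) lay within 2-fold of G&N. Summed, these genes took 9.95% and 8.69% of all counts in Lac-CoA, 9.58% and 9.68% in G&N, and 10.4% and 10.6% in G&N-L. Lac-CoA replicate 1 was above both G&N libraries and replicate 2 below them. Early 2-cell libraries held 10.9% to 12% and the wild-type histone H3 libraries 5.25% and 5.3%.

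**Figure D4:**
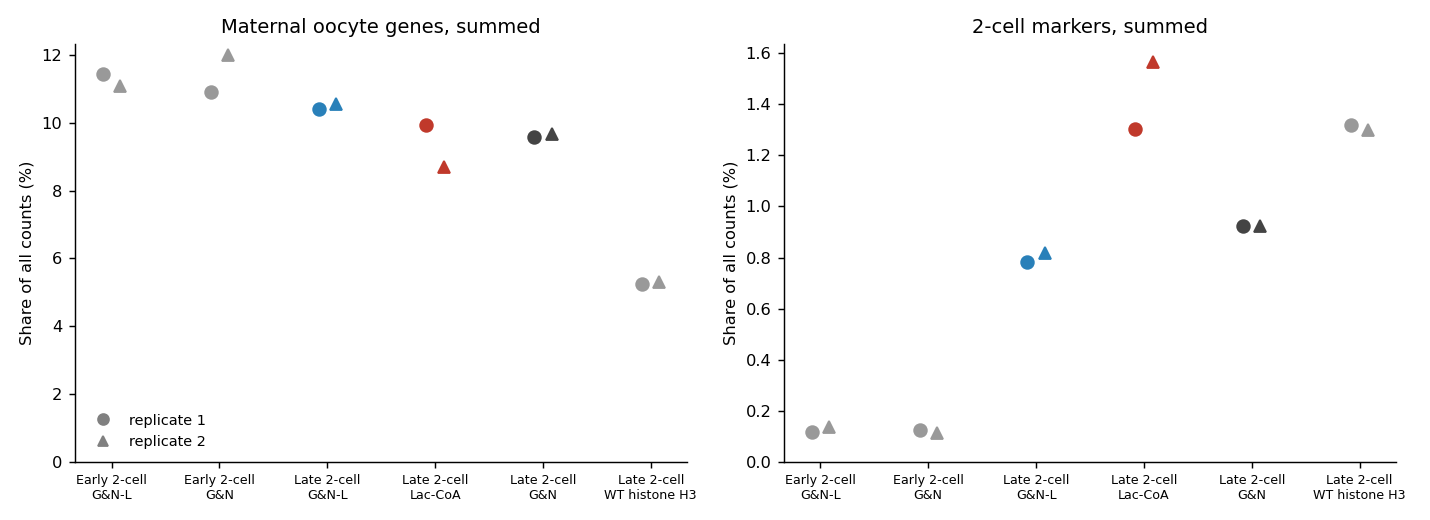
The summed share of all counts, in percent, taken by maternal oocyte genes (left) and by 2-cell markers (right) is plotted for each library of 6 groups. Maternal shares of Lac-CoA straddle those of G&N, whereas both Lac-CoA marker shares, 1.31% and 1.56%, lie above the G&N shares.

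Rfpl4, a RING-finger gene of the oocyte, was the clearest of the 7. It stood at 861 and 832 CPM in Lac-CoA, 2350 and 2090 in G&N and 1320 and 1660 in G&N-L. Both Lac-CoA libraries were below all 4 others, and the log2 fold change was -1.36 ± 0.19 (edgeR unadjusted p = 0.000439). Nlrp5, a subunit of the subcortical maternal complex, stood at 77.5 and 64.3 CPM against 142 and 202 in G&N and 125 and 101 in G&N-L. Oosp3, an oocyte-secreted protein gene, stood at 527 and 567 CPM against 978 and 1050 in G&N and 765 and 937 in G&N-L. H1f8, the oocyte linker histone, stood at 83.0 and 161 CPM against 240 and 252 in G&N. Eif4e1b, Fbxw28 and Slbp completed the 7, all of which also fell from the early to the late 2-cell stage.

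The abundant maternal RNAs Omt2b and Omt2a lay within 2-fold of G&N. Omt2b stood at 26400 and 22900 CPM in Lac-CoA and at 25100 and 25500 in G&N, and Omt2a at 16700 and 14900 against 15100 and 15200. Btg4, an adaptor that brings the CCR4-NOT deadenylase to maternal mRNA, stood at 9900 and 5980 CPM in Lac-CoA, 7820 and 8880 in G&N and 12200 and 12700 in G&N-L, within 2-fold of G&N although its Lac-CoA libraries differed more than the G&N ones. Bmp15, a growth factor of the oocyte, stood at 1380 and 1030 CPM against 1670 and 1620, within 2-fold. The machinery of maternal RNA decay had a median of 0.07, with 0 of 33 lower and 1 higher. That gene was Cnot10, a subunit of CCR4-NOT, at 32.6 and 39.6 CPM against 17.2 and 13.4 in G&N.

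Over the wider set of genes that fall from the early to the late 2-cell stage, 3175 were tested and the median was -0.19, with library medians of -0.08 and -0.34 in Lac-CoA, 0.00 and 0.00 in G&N, and 0.21 and 0.30 in G&N-L. Of these genes 227 were lower in Lac-CoA than in G&N (7.15%, against 4.1% of all genes), 73 higher (2.3%, against 4.41%) and 552 within 2-fold (17.4%, against 9.68%). Without Lac-CoA replicate 1 the lower count was 362 with a median of -0.40, and it was 137 and 123 without G&N replicate 1 or 2. Mphosph6, an exosome cofactor, stood below both other groups, at 4920 and 5520 CPM against 12400 and 12400 in G&N and 6400 and 9320 in G&N-L (log2 fold change -1.22 ± 0.17, edgeR unadjusted p = 0.000426). Me1, malic enzyme, stood at 219 and 235 CPM against 576 and 571 in G&N and 406 and 360 in G&N-L.

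For Gna14, P4ha1 and Ift81 the Lac-CoA libraries lay below both other groups, which overlapped each other. Gna14, a G protein alpha subunit, stood at 268 and 300 CPM in Lac-CoA, 710 and 698 in G&N and 631 and 754 in G&N-L. P4ha1, a collagen prolyl hydroxylase, stood at 21.0 and 26.1 CPM against 75.5 and 89.3 in G&N and 71.7 and 82.8 in G&N-L. Ift81, an intraflagellar transport protein, stood at 15.1 and 19.4 CPM against 77.8 and 59.8 in G&N and 50.9 and 94.7 in G&N-L. Tbc1d15 and Ifit1bl2 were other falling genes among the 10 lowest by p.

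Falling genes that stayed above G&N were fewer. Bet1, a SNARE of vesicle transport, stood at 178 and 212 CPM in Lac-CoA, 98.8 and 91.2 in G&N and 166 and 195 in G&N-L, so Lac-CoA libraries overlapped those without lactate. Mterf3, a regulator of mitochondrial transcription, stood at 135 and 119 CPM against 60.5 and 58.0 in G&N and 98.8 and 62.9 in G&N-L. Obox2 and Nlrp9b were within 2-fold of G&N, with Obox2 at 175 and 215 CPM against 220 and 221 in G&N and 295 and 325 in G&N-L.

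Genes encoded by the mitochondrial genome were low in Lac-CoA embryos, whose library medians of -0.76 and -0.36 overlapped those of G&N-L, -0.56 and -0.44. Their median log2 fold change was -0.52 in Lac-CoA and -0.53 in G&N-L, and 5 of 13 fell in Lac-CoA (38.5%, against 4.1% of all genes) and 0 rose. Together they took 3.97% and 4.7% of all counts in Lac-CoA, 5.28% and 5.64% in G&N and 4.04% and 4.23% in G&N-L. The 13 genes did not move alike, although they are transcribed as long precursors and cut into single mRNAs. The 5 that fell were mt-Nd2, mt-Nd4, mt-Nd5, mt-Nd6 and mt-Cytb, 4 of which encode subunits of complex I and mt-Cytb one of complex III.

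mt-Nd5 stood at 963 and 1040 CPM in Lac-CoA, 2170 and 2020 in G&N and 1140 and 1060 in G&N-L, a log2 fold change of -1.03 ± 0.18 (edgeR unadjusted p = 0.00158). mt-Nd6, encoded on the opposite strand from the others, stood at 110 and 138 CPM against 329 and 272 in G&N and 127 and 140 in G&N-L. mt-Cytb stood at 12700 and 15800 CPM against 20100 and 27800 in G&N and 12800 and 15400 in G&N-L. For mt-Nd5 the Lac-CoA libraries were below G&N-L as well, and for the other 2 they overlapped G&N-L.

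mt-Nd1, mt-Co1, mt-Co2, mt-Co3, mt-Atp6 and mt-Atp8 lay within 2-fold of G&N. mt-Co1, a subunit of cytochrome c oxidase, stood at 9370 and 9990 CPM in Lac-CoA, 8750 and 8420 in G&N and 9910 and 9020 in G&N-L. mt-Nd1 stood at 9470 and 10800 CPM against 11300 and 10500 in G&N. The 4 called genes that adjoin at the end of the gene order were mt-Nd4, mt-Nd5, mt-Nd6 and mt-Cytb. Neighbouring mitochondrial genes lie close or overlap, and the strand setting of the counting is not given in the sources used here, so reads of mt-Nd6 and its neighbours on the other strand cannot be told apart. The nuclear genes of the respiratory chain had a median of 0.01, with 2 of 76 lower (Cox6c and Ndufa4) and 1 higher (Ndufa7). The count of mitochondrial genes that fell was 2 without Lac-CoA replicate 1 and 3 without G&N replicate 2.

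**Figure D5:**
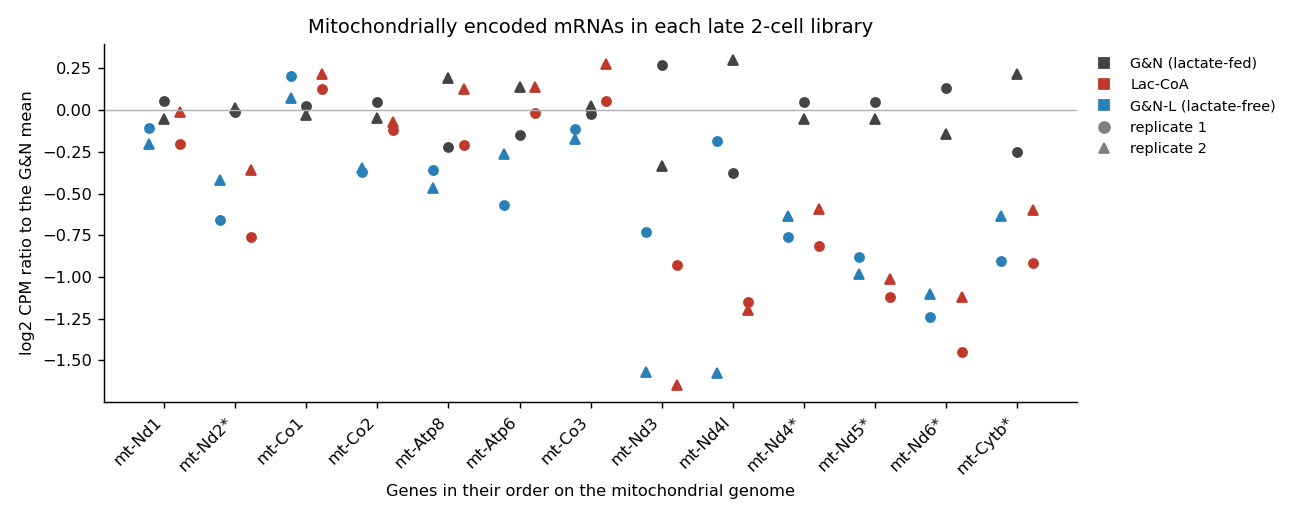
Each mitochondrially encoded mRNA is plotted as the log2 ratio of its CPM to the G&N mean in the 6 late libraries, with genes in their order on the mitochondrial genome and an asterisk after each that passed the criterion. From mt-Nd4 to mt-Cytb the Lac-CoA and G&N-L points lie together below G&N, and at mt-Co1 all groups lie near 0.

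Several single genes far exceeded G&N. Yeats2, a reader of acylated histone H3 in the ATAC acetyltransferase complex, stood at 138 and 235 CPM in Lac-CoA, 11.4 and 15.9 in G&N and 20.3 and 19.3 in G&N-L (log2 fold change 3.80 ± 0.39, edgeR unadjusted p = 0.0001). It belongs to the list of genes tied to lactylation and related acylation, which had a median of 0.02. Of the 26 tested genes of that list 1 rose (3.85%, against 4.41% of all genes) and 2 fell (7.69%, against 4.1%). Mllt3, a YEATS-domain reader of acylated histones, was one of the latter, at 351 and 332 CPM against 949 and 711 in G&N and 720 and 721 in G&N-L. Kat6b, a histone acetyltransferase, was the other, at 70.0 and 70.8 CPM against 115 and 114.

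Nxf2, an mRNA export factor of the X chromosome, stood at 661 and 685 CPM in Lac-CoA, 110 and 156 in G&N and 257 and 190 in G&N-L (log2 fold change 2.37 ± 0.26). Hes1, a transcriptional repressor downstream of Notch, stood at 168 and 166 CPM against 57.3 and 64.7 in G&N and 38.0 and 63.2 in G&N-L. Skil, a co-repressor of SMAD signalling, stood at 58.4 and 74.3 CPM against 20.1 and 18.4, and Snai2, a zinc finger repressor, at 36.8 and 34.4 against 1.46 and 2.76. Scn7a, a sodium channel gene, had 803 and 1040 counts in Lac-CoA and 0 and 0 in G&N. With G&N set to 3 counts per library the ratio was 307.5. That ratio is not a lower bound, because PCR-amplified counts are not independent molecules. The G&N-L libraries of Scn7a held 0 and 196 counts (0 and 5.52 CPM).

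Pramel23 and Pramel27, members of a multicopy family of leucine-rich repeat genes active in oocytes and early embryos, were higher in Lac-CoA but scattered. Pramel23 stood at 82.3 and 140 CPM in Lac-CoA, 6.10 and 5.72 in G&N and 7.75 and 45.6 in G&N-L. Pramel27 stood at 218 and 279 CPM against 3.27 and 0.26 in G&N, while the G&N-L libraries were at 9.33 and 328, so 1 library without Lac-CoA exceeded both with it.

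Cks2, Rps3a2 and Senp7 were also below G&N. Cks2, a subunit of cyclin-dependent kinases, stood at 2510 and 2480 CPM in Lac-CoA, 6390 and 7090 in G&N and 3100 and 3980 in G&N-L (log2 fold change -1.40 ± 0.17, edgeR unadjusted p = 0.000254). Rps3a2, a copy of the ribosomal protein gene Rps3a1, stood at 2.16 and 2.06 CPM against 26.0 and 22.7 in G&N and 8.65 and 5.92 in G&N-L, and reads shared with that copy make it uncertain. Senp7, a SUMO protease, stood at 17.9 and 11.2 CPM against 51.8 and 54.3 in G&N and 21.4 and 24.1 in G&N-L. For all 3 the Lac-CoA libraries were below both other groups.

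The genes of lactate, pyruvate and NAD metabolism had a median of -0.01, with 1 of 42 lower and 0 higher. The gene that fell was Ldhb, a target of the inhibitor and a maternal transcript that falls with stage, at 739 and 608 CPM in Lac-CoA, 1040 and 1100 in G&N and 1150 and 1570 in G&N-L (log2 fold change -0.64 ± 0.20, edgeR unadjusted p = 0.0224). Ldha stood at 24.0 and 15.0 CPM against 8.84 and 13.6 in G&N and 5.05 and 3.75 in G&N-L and did not pass. Of 17 genes of coenzyme A metabolism 1 fell and 0 rose. That gene was Suclg2, a subunit of succinyl-CoA synthetase, at 55.1 and 59.7 CPM against 91.3 and 108.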

How the data were processed

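Late 2-cell and early 2-cell embryos were profiled by RNA-seq. The deposited table held one column of raw read counts per gene for each of 14 libraries. Per the labels and the methods, the authors trimmed reads with Trim Galore, checked them with FastQC, aligned them to mm39 with HISAT2, counted them with featureCounts and tested them with DESeq2; no versions and no strand setting were given in the sources used here. The cDNA was amplified by PCR, and no molecular identifiers are described, so counts are not independent molecules.

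The 4 libraries of Lac-CoA and G&N were fitted with edgeR 4.0.16 in R 4.3.3 (filterByExpr, TMM, quasi-likelihood test, Benjamini-Hochberg adjustment). Printed CPM used TMM over 6 libraries, which shifted fold changes by -0.03 (log2). The nominal criterion is given in the report and is not credited to the study. The smallest p of an exact permutation of 2 against 2 libraries is 0.333, so single values were not tested that way. P-values measure the spread between these libraries, which may be technical. The members, gene lists and rules were chosen with earlier results of these data known. The genes named were the 10 lowest and 10 highest by p with a mean of at least 10 CPM and no overlap, up to 5 per stage class, up to 4 by p per list, and the Dppa, Zscan4, Usp29, Kdm4b, Ldha, Ldhb and Btg4 genes; other genes were named after their values were seen. Of 19613 tested genes, 19461 matched the GENCODE annotation of GRCm39. DESeq2 1.42.0 was an alternative. The test was checked on simulated counts of 17890 genes. Of genes changed by a log2 of 2, 45 of 50 lowered and 49 of 50 raised passed the criterion, and 25 and 26 of 50 at a log2 of 1. Of unchanged genes 4.6% passed, counted over both directions together, unlike the separate shares of lower and higher genes given above. The changed genes were drawn from those with a mean of at least 10 CPM, so their rates do not cover genes below that level. Some items are not reported here.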

Additional observations from a re-analysis of the deposited data

How the results depend on the processing

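The number of genes past an adjusted p of 0.05 was 0 in the reported fit, 471 with DESeq2, 22 without a filter and 20 with at least 10 counts in every library. With all 14 libraries in one fit 425 genes were higher, and the medians were 0.38 for 2-cell markers and -0.29 for maternal genes. Replicate numbers were shared between the groups, which does not show whether same-numbered libraries were paired. Their deviations correlated at 0.00643, a single value that cannot decide it. With the replicate block 488 genes were lower and 570 higher at the criterion.

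Leaving out 1 library at a time gave 357 to 1055 lower and 629 to 782 higher genes, and 549 to 975 within 2-fold. The list medians then ranged from -0.0803 to 0.26 for late 2-cell-induced genes, -0.40 to -0.12 for falling genes, 0.40 to 0.48 for 2-cell markers and -0.25 to -0.13 for maternal genes. The median of all genes moved to between -0.12 and 0.11 in these fits. The share of calls that were higher was 32.3% with all 14 libraries in one fit and 41.8% to 68.7% when a library was left out. The cause of these changes was not tested. Over the named genes and all alternatives, 1413 fold changes kept their direction and side of the criterion, 146 lost the criterion, 81 gained it and 17 changed sign, none of them in a gene past the criterion in the reported fit. Leaving out 1 library at a time, the fold changes ranged from -0.27 to 0.17 for Ppp2cb, -0.083 to 0.25 for Ficd, -0.25 to 0.29 for Prmt6, -0.53 to 0.028 for C87198, -2.97 to 2.81 for Star, -0.069 to 1.5 for Irf1, -2.46 to 0.42 for Pgk2, -0.17 to 0.89 for Zscan4a and -0.46 to 0.26 for Btg4. Prmt6 was also at -8e-04 with DESeq2, -9e-04 with its size factors in edgeR, -0.0723 with all 14 libraries and -0.0192 with the 6 late libraries, and Btg4 at 0.0032 without TMM. Gm-named and multicopy genes share reads, and 2 libraries per group limit every interval.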

Other observations

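Genes of the integrated stress response, which is driven by the transcription factor ATF4, included 3 of 19 that rose (15.8%, against 4.41% of all genes) and 0 that fell, with a median of 0.40 (0.23 in G&N-L). Both Lac-CoA libraries lay above both G&N libraries for 8 of the 19 and below them for 7 (19.2% and 20.3% of all genes). Library medians were 0.14 and 0.44 in Lac-CoA and 0.21 and 0.02 in G&N-L, so these groups overlapped. Nupr1, a stress-induced chromatin protein, stood at 101 and 149 CPM in Lac-CoA, 15.1 and 14.1 in G&N and 25.8 and 32.2 in G&N-L (log2 fold change 3.13 ± 0.32, edgeR unadjusted p = 9.62e-05). Ddit3 (CHOP) stood at 70.8 and 69.1 CPM against 36.0 and 44.6, and Atf4 itself at 39.7 and 55.8 against 30.0 and 24.1. Atf4 was at the edge of the criterion (edgeR unadjusted p = 0.0498) and passed it under 5 of 12 alternatives. The C/EBP-ATF motif TGATGNAAT, searched on both strands of the 250 bases before the gene start, was in 0 of these 19 promoters and in 0.735% of all. At so low a share a list of 19 would mostly hold no match, so the search could not tell these genes from others.

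Heat shock genes had a median of 0.03 (-0.78 in G&N-L), with 0 of 23 higher and 2 lower (8.7%, against 4.1% of all genes). Hsp90ab1, a cytosolic chaperone, was one of these, at 142 and 144 CPM in Lac-CoA, 261 and 216 in G&N and 106 and 135 in G&N-L. Of 23 p53 target genes 1 rose (Eda2r) and 1 fell (Tnfrsf10b), and of 18 innate immune genes 0 passed the criterion in either direction in edgeR. Ifitm3 stood at 183 and 166 CPM against 234 and 233 and lay within 2-fold.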
